A study of Mus musculus with 24 samples.

Results

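Tags over 10 genes of the imprinted Igf2r and Kcnq1 clusters were counted in ribosome-depleted RNA-Seq of mouse cells and tissue. The genes were chosen by their membership in the clusters and their place beside 2 macro ncRNAs, by a rule that holds no measured value, and they are 10 of 22382 features counted. The Igf2r cluster on chromosome 17 gave 4 of them, namely Igf2r, the macro ncRNA Airn, Slc22a2 and Slc22a3. The Kcnq1 cluster on chromosome 7 gave 6, namely the macro ncRNA Kcnq1ot1, Kcnq1, Cdkn1c, Phlda2, Slc22a18 and Ascl2.

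Both tissues were compared in 16 libraries. CCE is a feeder-independent embryonic stem cell line of strain 129/SvEv, used here after 5 days of differentiation without LIF and with 0.266 µM retinoic acid. FH is the whole fetal head of FVB/N mice at 14.5 days post coitum, a mixture of brain with skull, muscle, vessels and blood. Strain therefore differed together with tissue, and the 2 cannot be told apart. RNA was depleted of rRNA with RiboMinus, then fragmented by RNA-hydrolysis or as cDNA by shearing, giving 7 cDNA preparations (4 of CCE, 3 of FH). Each preparation was sequenced in Vienna-IMP and in Nijmegen, which made 14 libraries of 920424 to 2473448 unique tags. The CCE preparations were technical replicates of 1 RNA source, and for FH nothing stated separate animals, so p-values measure the spread between preparations. The sheared and the hydrolysed preparation of CCE1, of CCE2 and of FH1 each came from 1 depleted RNA, so the 7 preparations, entered singly in every test, rest on 4 depleted RNAs and p-values may be too small. Hydrolysed preparation numbers may also be crossed between locations (see the processing below), which would mix 2 depleted RNAs in each hydrolysed preparation. FH2 hydrolysed went through 2 rounds of depletion and FH1 hydrolysed through 1. RNA from 1 further sample of each tissue was depleted with Ribo-Zero, then hydrolysed and sequenced in Vienna-CeMM to 28708715 (CCE) and 48426051 (FH) unique tags. Sequencing site, machine and tag length therefore differed together with the kit. Only the Ribo-Zero totals include mitochondrial tags (2363248 in CCE, 2200005 in FH). Both strains are inbred and the tags carry no allele, so all values are the sum of the maternal and the paternal copy.

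Imprinted genes are expressed from the copy of 1 parent only. Airn and Kcnq1ot1 are transcribed from the paternal chromosome, start inside the gene Igf2r or Kcnq1 in the opposite direction to it, and are known to silence protein-coding genes of their cluster in cis. Their promoters lie in CpG islands that are methylated on the maternal chromosome. Some of the silenced genes, among them Slc22a2 and Slc22a3, are known to be imprinted in extra-embryonic tissue but not in the embryo, and Igf2r is known to escape silencing in neurons.

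The labels of the tissues were checked against marker genes, as a description: many markers entered the test only through the tissue where they were high, among them all 5 tested for vessel and blood and most of those for extra-embryonic endoderm, so their direction was fixed by the minimum of 3 RPKM given below. Of 12 extra-embryonic endoderm markers tested, 11 were lower in FH and none was higher, and the means of Gata4 and Cubn were 13.1 and 23.8 RPKM (tags per kb of exon, scaled to the unique tags of the library) in CCE against 0 and 0.396 in FH. All 4 neuron markers and all 5 vessel and blood markers tested were higher in FH, where Hbb-b1 averaged 179 RPKM against 0 in CCE. So were, in RiboMinus preparations, all 4 neural progenitor markers tested and 6 of 7 markers of skull, cartilage and muscle. Summed endoderm markers ranged from 419 to 564 RPKM in CCE and from 116 to 129 in FH. Of 6 pluripotency markers 4 were lower and 2 (Klf4 and Sox2) higher in FH RiboMinus preparations. In Ribo-Zero Sox2, also a neural progenitor marker, was at 42.7 RPKM in CCE and 21.4 in FH, and Klf4 at 2.82 and 2.79. Pou5f1, which marks undifferentiated stem cells, was at 18.0 RPKM in CCE and at 0 in FH. Of the 6 trophoblast markers matched, Hand1 was lower in FH (3.14 RPKM in CCE, 0 in FH) and Eomes higher (1.18 and 5.79), while Gcm1 and Tpbpa were at 0 in every preparation and Cdx2 was at 0.318 RPKM in CCE. In such bulk samples fewer cells of a type and less RNA per cell cannot be told apart. The part of these cell types in the results that follow was not tested.

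Airn was annotated at chr17:12934177-13052988 (mm9, plus strand) and its first 28.4 kb lie within Igf2r. Kcnq1ot1 was taken as chr7:150399016-150482452 (minus strand) inside Kcnq1, where it spans introns and 1 exon. Their promoters, 250 bases before to 50 bases after the start as given by RefSeq, are shown because the tag density changed sharply at them. Each was found once on its chromosome in mm9, at chr17:12933927-12934226 and chr7:150482403-150482702. Capitals mark the dinucleotide CG and the motif CCAAT in either direction (CCAAT or ATTGG).
Airn: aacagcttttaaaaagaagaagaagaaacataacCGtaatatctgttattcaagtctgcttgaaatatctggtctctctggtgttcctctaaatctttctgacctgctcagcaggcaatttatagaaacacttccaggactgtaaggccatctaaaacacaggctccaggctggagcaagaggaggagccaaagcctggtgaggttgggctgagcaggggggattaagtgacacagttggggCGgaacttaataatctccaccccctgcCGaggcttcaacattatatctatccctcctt
Kcnq1ot1: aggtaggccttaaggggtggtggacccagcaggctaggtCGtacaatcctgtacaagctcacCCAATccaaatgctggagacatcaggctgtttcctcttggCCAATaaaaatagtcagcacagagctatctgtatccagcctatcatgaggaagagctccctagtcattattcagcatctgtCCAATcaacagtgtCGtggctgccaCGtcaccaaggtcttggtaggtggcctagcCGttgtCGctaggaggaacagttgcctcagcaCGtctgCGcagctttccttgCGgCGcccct
The Kcnq1ot1 window held 3 copies of CCAAT, a number reached by 3.21% of 32851 promoters of the same length, and the Airn window held 0. At least 1 copy was found in 37.4% of all promoters. The windows held 9 and 3 CG, against a median of 7 over all promoters, and most of the CG lay further inside the transcripts. The first kb of Airn held 70 and that of Kcnq1ot1 held 68, against 5 and 10 in the kb before. Across the whole regions there were 10.9 CG per kb in Airn and 6.62 in Kcnq1ot1.

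Tag density stepped up at both starts. In the first kb of Kcnq1ot1 the density was 7.77, 5.02, 5.64 and 10.4 RPKM in CCE1 hydrolysed, CCE1 sheared, CCE2 hydrolysed and CCE2 sheared. In the same order it was 7.27, 8.47 and 9.49 RPKM in FH1 hydrolysed, FH1 sheared and FH2 hydrolysed. The kb before the start held 0 tags in all 7 preparations, where 3 tags would have given 0.23 RPKM in pooled CCE and 0.302 in pooled FH, and 4 tags in each Ribo-Zero library. Over 10 kb on either side the pooled CCE libraries held 5 tags before and 381 after the start, and the FH libraries held 1 and 294. At Airn, which starts in an intron of Igf2r, the kb before the start, outside exons, held 0 tags in the 3 FH preparations and 0.593 RPKM in pooled CCE, against 4.23 and 10.9 RPKM in the kb after. In Ribo-Zero the kb before held 5.28 RPKM (137 tags) in CCE and 2.90 (127 tags) in FH, against 10.2 and 6.11 after. In RiboMinus preparations the 10 kb before it, outside exons, held 0.792 ± 0.422 RPKM in CCE (SD, n = 4) and 0.566 ± 0.106 in FH (SD, n = 3). The 10 kb after it held 7.66 ± 2.78 RPKM in CCE and 3.18 ± 0.385 in FH. Tags were read without strand, so the part of Airn inside Igf2r also holds Igf2r pre-mRNA.

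**Figure D1:**
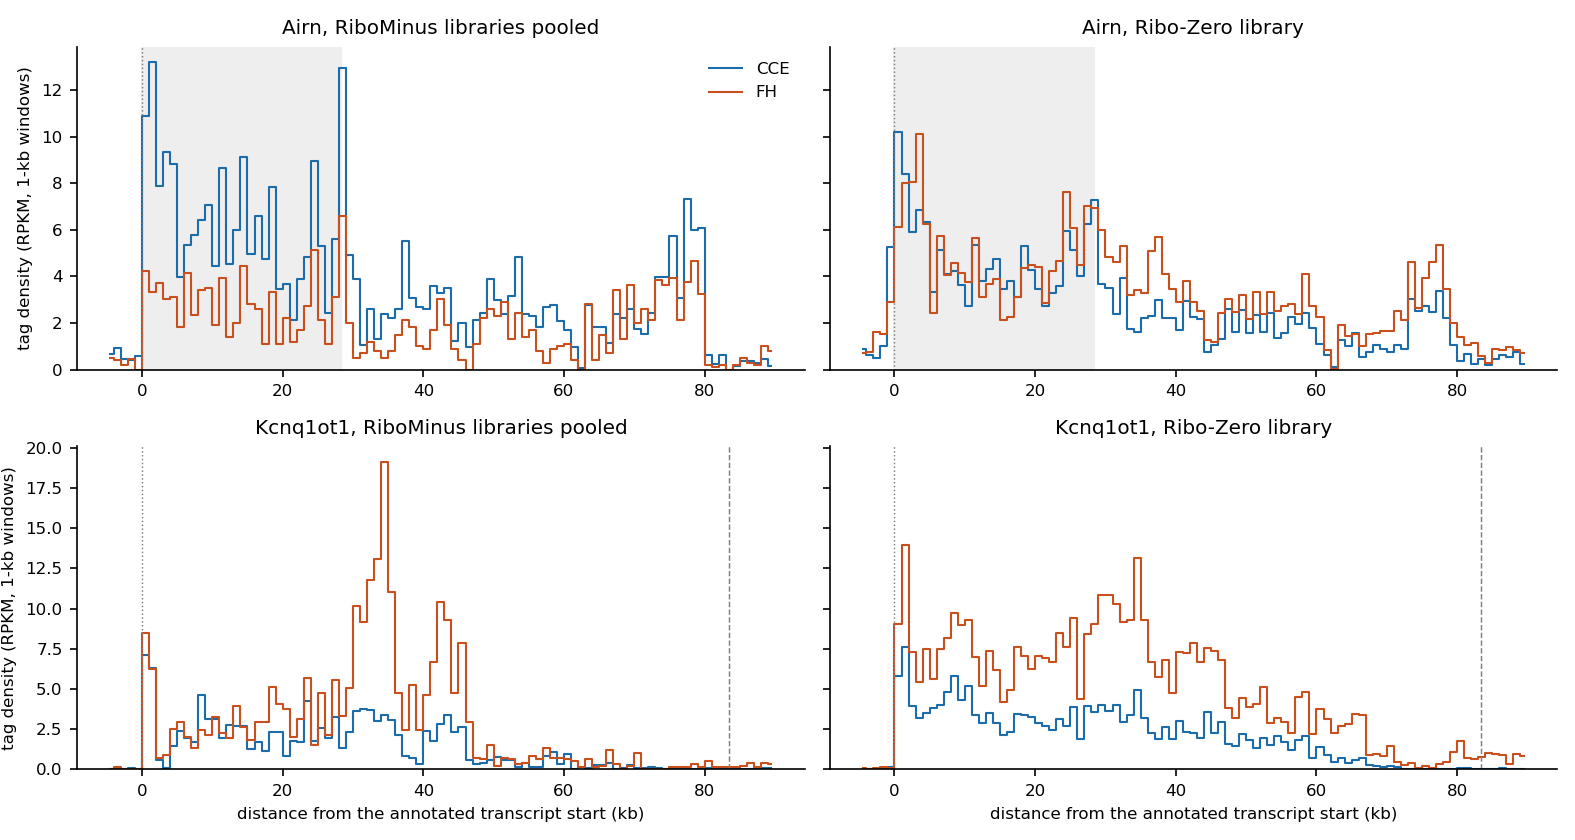
Tag density in 1-kb windows (RPKM, vertical axis) against the distance from the annotated start (kb, horizontal axis) along Airn (top) and Kcnq1ot1 (bottom), with exons of other genes left out, for CCE (blue) and FH (orange) in the pooled RiboMinus libraries (left) and the Ribo-Zero library (right). The grey area marks the part of Airn inside Igf2r, the dotted line the start and the dashed line the annotated end of Kcnq1ot1. Density rises at both starts, Airn thins out past 80 kb, and Kcnq1ot1 in FH RiboMinus libraries has a raised stretch between 30 and 36 kb.

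Igf2r, the receptor that carries mannose 6-phosphate tagged enzymes to lysosomes and removes Igf2 from the cell surface, was the most abundant transcript of its cluster and was lower in FH. Its exons (chr17:12875272-12962530, minus strand) held 106 RPKM in CCE1 hydrolysed, 89.8 in CCE1 sheared, 106 in CCE2 hydrolysed and 103 in CCE2 sheared. In FH they held 28.4 in FH1 hydrolysed, 20.7 in FH1 sheared and 29.6 in FH2 hydrolysed. The groups did not overlap, and neither did the single libraries, with 86.7 to 115 RPKM in the 8 CCE and 17.4 to 30.9 in the 6 FH libraries. In the Ribo-Zero libraries the level was 102 RPKM in CCE (95% Poisson interval 101 to 104) and 41.8 in FH (41.2 to 42.4). These intervals cover counting error only, here and elsewhere.

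The main test was limma on log2(RPKM + 1) over the 7 preparations, for features with a mean over 3 RPKM in at least 1 tissue. The log2 difference between FH and CCE was -1.92 ± 0.19 for Igf2r (SE, adjusted p = 3.71e-05). Of the 10 genes, 4 passed the minimum (Igf2r, Airn, Cdkn1c and Phlda2) and 3 of these were called, all lower in FH. Airn and Phlda2 passed only through CCE. Of all 10307 features tested 54.7% were called, 19.9% higher and 34.8% lower in FH, so a call is no rare event here. The median difference over all features was -0.34. Under scaling by the median ratio of features that median became -0.09, calls split into 2531 higher and 2526 lower in place of 2056 and 3583, and Igf2r stood at -1.67.

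**Figure D2:**
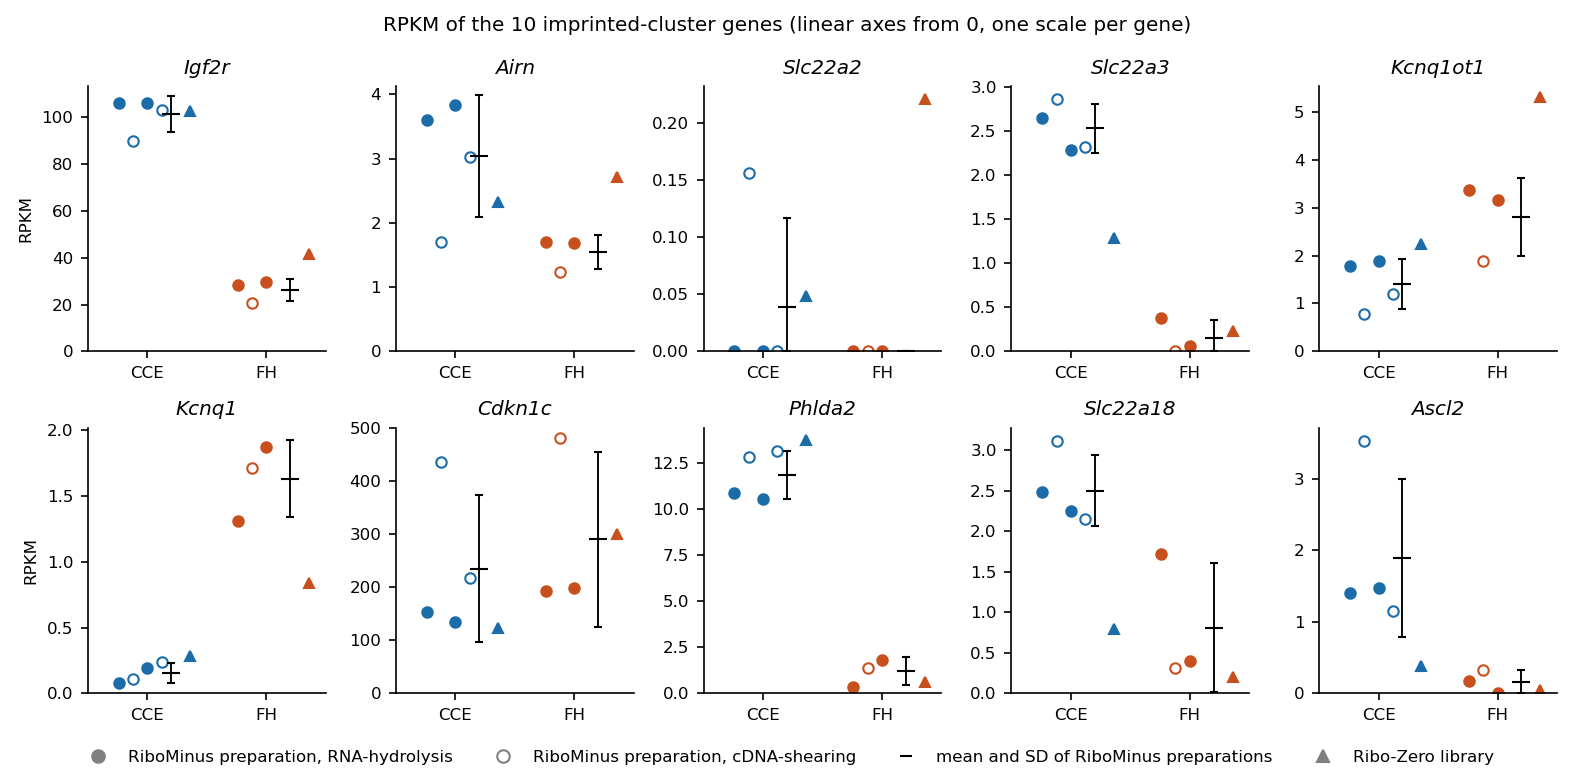
RPKM (vertical axis, linear from 0, 1 scale per gene) of the 10 genes in CCE (blue) and FH (orange). Circles are the 7 RiboMinus preparations (filled for RNA-hydrolysis, open for cDNA-shearing), bars their mean and SD (cut at 0), and triangles the 1 Ribo-Zero library of each tissue. Igf2r, Phlda2, Slc22a3, Slc22a18 and Ascl2 lie higher in each CCE preparation than in any of FH, and Kcnq1 the other way. The share of all features that separate in this way is not given here. In the main test 54.7% of features were called between tissues.

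The exons of Igf2r were not evenly covered. Of its 50 merged exons, 4 lie inside Airn, where the paper, in its own numbering, names only exons 1 and 2. Exons 1 and 4 held 90.2 and 88.7 RPKM in the pooled CCE libraries, near the gene's mean. Exons 2 and 3, of 130 and 114 bases, held 10.6 and 6.72 RPKM, against 5.67 RPKM for Airn outside exons between 5 and 30 kb. All 4 together, with the low exons 2 and 3 included, held 61.7 ± 21.6 RPKM in CCE and 20.9 ± 6.67 in FH. The 8789 bases of exon outside Airn held 104 ± 8.68 and 26.7 ± 5.69. The exons outside Airn gave a log2 difference of -1.95 (exact permutation p = 0.0571, two-sided, the smallest that 4 against 3 preparations allow), so the difference does not rest on tags shared with Airn.

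Introns of Igf2r outside Airn, which hold unspliced RNA, differed less than the exons. They held 1.62, 1.28, 1.62 and 0.996 RPKM in CCE1 hydrolysed, CCE1 sheared, CCE2 hydrolysed and CCE2 sheared, and 0.87, 0.602 and 0.877 in FH1 hydrolysed, FH1 sheared and FH2 hydrolysed. The groups did not overlap. The limma difference on log2(intron RPKM + 0.1) was -0.74 ± 0.27 (adjusted p = 0.0599) and did not pass the threshold of 0.05. With fragmentation as a covariate it was -0.82 (adjusted p = 0.0026), where 4319 of 8260 genes were called. Without CCE2 sheared it was -0.87 (adjusted p = 0.0455), where 2110 of 8358 genes were called. Of 8260 genes tested for intron density without the covariate, 31.7% were called, 26.5% higher and 5.19% lower in FH. The median difference of the 8260 genes was 0.46. In Ribo-Zero the introns held 1.68 RPKM in CCE and 1.28 in FH.

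Airn, the macro ncRNA antisense to Igf2r, was low in both tissues and its difference between them depended on how it was counted. Over its 118812 bases CCE1 hydrolysed held 3.60 RPKM, CCE1 sheared 1.70, CCE2 hydrolysed 3.83 and CCE2 sheared 3.02. FH1 hydrolysed held 1.71, FH1 sheared 1.23 and FH2 hydrolysed 1.68. The groups overlapped, since CCE1 sheared lay just under FH1 hydrolysed. The limma difference was -0.64 ± 0.22 (adjusted p = 0.0384). Its mean in CCE was 3.04 RPKM, just over the minimum of 3. Without the minimum the adjusted p was 0.0561. Among hydrolysed preparations alone (CCE1, CCE2, FH1 and FH2), where 7927 of 10407 features were called, the difference was -0.81 (adjusted p = 0.00107). The call was lost without CCE2 sheared (adjusted p = 0.0665), without FH1 hydrolysed (0.068), without FH1 sheared (0.0919) and without FH2 hydrolysed (0.0771), and without either CCE hydrolysed preparation Airn was under the minimum. It was also under the minimum with single libraries as units, in Vienna-IMP libraries alone and with hydrolysed preparation numbers crossed at Nijmegen, and in Nijmegen libraries alone it was not called (adjusted p = 0.0823). Counted without Igf2r exons, Airn averaged 2.72 RPKM in CCE, under the minimum, and the exact permutation p was 0.171 (two-sided).

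Most of the difference in Airn lay inside Igf2r. There, with exons left out, Airn held 6.12 ± 2.27 RPKM in CCE and 2.61 ± 0.506 in FH, and the groups did not overlap (7.70, 3.01, 7.92 and 5.86 against 2.92, 2.03 and 2.89). Outside the Igf2r gene it held 1.64 ± 0.632 RPKM in CCE and 1.05 ± 0.219 in FH. That part, free of Igf2r pre-mRNA, gave -0.34 in limma without the minimum (adjusted p = 0.259). In Ribo-Zero the same part was higher in FH, at 1.91 RPKM against 1.21 in CCE. The whole region there held 2.72 RPKM in FH and 2.33 in CCE, a ratio of 1.17 (95% exact binomial interval 1.14 to 1.20). The direction of Airn thus differed between the RiboMinus and the Ribo-Zero libraries. With 1 Ribo-Zero library per tissue, and RNA, site and machine that differed from those of the RiboMinus libraries, this was not tested. The Ribo-Zero totals also include mitochondrial tags, in a larger share in CCE than in FH, which enters the ratio.

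Relative to Igf2r, Airn was higher in FH with both kits. The density of Airn outside Igf2r was 0.0193, 0.00928, 0.0211 and 0.0141 of that of Igf2r exons in CCE1 hydrolysed, CCE1 sheared, CCE2 hydrolysed and CCE2 sheared. It was 0.0421, 0.0387 and 0.0393 in FH1 hydrolysed, FH1 sheared and FH2 hydrolysed, and 0.0118 (CCE) and 0.0457 (FH) in Ribo-Zero. The log2 ratio differed by 1.40 between tissues and the groups did not overlap (exact permutation p = 0.0571, two-sided, the smallest possible). Both parts of the ratio enter it, and Igf2r exons differed more than Airn.

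Along its length Airn thinned out past 80 kb, and low density went on to its annotated end in 3 of the 4 sets of libraries. Density outside exons was 1.79 RPKM (CCE) and 1.70 (FH) between 60 and 73 kb in pooled RiboMinus libraries and had a local peak after that. It went from 4.75 RPKM between 73 and 80 kb to 0.33 between 80 and 90 kb in CCE, and from 3.47 to 0.353 in FH. In Ribo-Zero it went from 2.58 to 0.463 in CCE and from 3.88 to 0.884 in FH. These bounds were set after the 1-kb profile was seen. In FH RiboMinus libraries the last 3 windows of 10 kb, from 90 to 120 kb, held 0.126, 0.154 and 0.181 RPKM, and the window from 120 to 130 kb, past the annotated end, held 0.0211. In FH Ribo-Zero the density was 0.273 RPKM between 110 and 120 kb and 0.0367 in the next 10 kb. In CCE Ribo-Zero it was 0.109, 0.0778 and 0.140 RPKM from 90 to 120 kb and 0.0255 in the next 10 kb. CCE RiboMinus libraries showed no clear drop at the annotated end, with 0.0881, 0.0451 and 0.0325 RPKM (11, 5 and 4 tags), then 0.016 (2 tags), and 0.0882 (11 tags) between 140 and 150 kb. Inside Mas1, which the annotated 3′ part of Airn overlaps, tags of both cannot be told apart without strand, and Mas1 exons held 0.0945 RPKM in CCE and 0.335 in FH. Over this stretch the density was 0.0399 ± 0.0232 RPKM in CCE and 0.178 ± 0.0275 in FH, and the groups did not overlap (exact permutation p = 0.0571, two-sided). It was 0.119 RPKM in CCE and 0.288 in FH with Ribo-Zero. The distance below which 50% of tags lay, with Igf2r exons left out, was 25.5, 27.9, 26.3 and 25.8 kb in CCE and 38.9, 28.9 and 36.5 kb in FH, in the order used above. The means differed by 8.37 kb (exact permutation p = 0.0571, two-sided), and by 4.71 kb with Igf2r exons kept. In Ribo-Zero it was 26.9 kb in CCE and 31.8 kb in FH.

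The organic cation transporters Slc22a2 and Slc22a3, neighbours of Igf2r that Airn is known to silence in placenta, were near or below detection in FH RiboMinus libraries and low in FH Ribo-Zero. Slc22a3 (chr17:12612838-12700570) held 2.65, 2.87, 2.29 and 2.32 RPKM in CCE1 hydrolysed, CCE1 sheared, CCE2 hydrolysed and CCE2 sheared. In FH1 hydrolysed, FH1 sheared and FH2 hydrolysed it held 0.385, 0 and 0.0661 RPKM, from 6 tags in all. All CCE values lay above all FH values. In Ribo-Zero it held 1.28 RPKM (129 tags) in CCE and 0.236 (40 tags) in FH, so CCE was 5.44-fold higher (95% exact binomial interval 3.79 to 7.96). Slc22a2 (chr17:12777055-12821331) had 1 tag in the 8 CCE libraries and 0 in the 6 FH libraries, where 3 tags would have given 0.141 RPKM in FH and the 95% Poisson interval reaches 0.173. In Ribo-Zero it had 3 tags in CCE (0.0486 RPKM) and 23 in FH (0.221 RPKM). These levels are too low for a comparison in the RiboMinus libraries.

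Of 12 neighbours of Igf2r listed, 6 were tested, 4 were lower and none higher in FH, with a median of -0.80 against -0.34 for all features, of which 34.8% were lower. Tcp1, a subunit of the TRiC chaperonin, held 9.39 RPKM in CCE and 2.99 in FH (log2 difference -1.38), and was tested only through CCE. Mrpl18, a mitochondrial ribosomal protein, differed by -1.33 (14.9 RPKM in CCE, 5.30 in FH, adjusted p = 0.000747 in limma). All 14 genes listed for mannose 6-phosphate sorting, the pathway of Igf2r, were tested, and 9 were lower and none higher in FH, where 34.8% of all features were lower, with a median of -0.80. The largest differences were those of the lysosomal proteases Ctsl (87.8 RPKM in CCE, 9.01 in FH, log2 difference -3.17, adjusted p = 0.0001) and Ctsd (615 and 125 RPKM, -2.33, adjusted p = 9.9e-05). M6pr, the other mannose 6-phosphate receptor, held 7.49 ± 2.78 RPKM in CCE and 3.16 ± 1.99 in FH (log2 difference -1.12, adjusted p = 0.0418). Of 6 organic cation and carnitine transporters listed, 1 was tested and not called, with -0.42 for Slc22a5 (adjusted p = 0.11 in limma).

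Kcnq1ot1, the macro ncRNA of the Kcnq1 cluster, had a higher mean in FH with both kits. It held 1.78 RPKM in CCE1 hydrolysed, 0.775 in CCE1 sheared, 1.89 in CCE2 hydrolysed and 1.19 in CCE2 sheared. FH1 hydrolysed held 3.38, FH1 sheared 1.88 and FH2 hydrolysed 3.15. The groups overlapped only in that CCE2 hydrolysed lay just above FH1 sheared. Within each fragmentation method they did not overlap. Ribo-Zero gave 2.23 RPKM in CCE (95% Poisson interval 2.17 to 2.29) and 5.31 in FH (5.24 to 5.38). Its mean stayed under 3 RPKM in both tissues, so it was not in the main test, and the exact permutation p was 0.114 (two-sided). In limma without the minimum, where 42.5% of 17726 features were called (20.6% higher and 22.0% lower in FH), the difference was 0.66 ± 0.24 (adjusted p = 0.0536). It was 0.57 (adjusted p = 0.0071) with fragmentation added as a covariate, where 10190 of 17726 features were called. It was 0.59 (adjusted p = 0.00565) among hydrolysed preparations with the minimum, where 7927 of 10407 features were called. Without FH1 sheared it passed the minimum, at 0.85 (adjusted p = 0.0105).

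Against Airn, the order of the 2 macro ncRNAs changed between tissues. The density of Kcnq1ot1 was 0.87, 0.929, 0.848 and 0.82 of that of Airn outside Igf2r in CCE1 hydrolysed, CCE1 sheared, CCE2 hydrolysed and CCE2 sheared. It was 2.82, 2.35 and 2.71 in FH1 hydrolysed, FH1 sheared and FH2 hydrolysed. In log2 the ratios were -0.21 ± 0.08 in CCE (SD, n = 4) and 1.39 ± 0.14 in FH (SD, n = 3), a difference of 1.60 (exact permutation p = 0.0571, two-sided, the smallest possible). Ribo-Zero gave ratios of 1.84 in CCE and 2.78 in FH, so the ratio was higher in FH with both kits, but in CCE it lay under 1 with RiboMinus and over 1 with Ribo-Zero.

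The shape of Kcnq1ot1 differed too. In the pooled FH RiboMinus libraries the stretch from 30 to 36 kb after the start, whose bounds were set after the profile was seen, held 12.4 RPKM against 2.94 between 2 and 30 kb. The ratio of these stretches was 4.02, 3.69 and 4.57 in FH1 hydrolysed, FH1 sheared and FH2 hydrolysed. In CCE it was 1.62, 2.28, 1.40 and 1.71 in CCE1 hydrolysed, CCE1 sheared, CCE2 hydrolysed and CCE2 sheared, so no CCE value reached an FH value. In Ribo-Zero it was 1.06 in CCE and 1.42 in FH. The distance below which 50% of tags lay was 25.1, 28.8, 23.9 and 24.2 kb in CCE and 32.3, 31.7 and 33.1 kb in FH, a difference in means of 6.93 kb (exact permutation p = 0.0571, two-sided). Beyond 47 kb RiboMinus tags thinned out, with 0.6247 RPKM in FH and 0.406 in CCE between 47 and 67 kb. Ribo-Zero held 3.42 and 1.31 RPKM there.

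Tags also went past the annotated end of Kcnq1ot1, in FH more than in CCE. The 30 kb beyond the end, outside Kcnq1 exons, held 1, 3, 4 and 2 tags in CCE1 hydrolysed, CCE1 sheared, CCE2 hydrolysed and CCE2 sheared, and 22, 9 and 19 in FH1 hydrolysed, FH1 sheared and FH2 hydrolysed. As density this was 0.0272 ± 0.0139 RPKM in CCE and 0.172 ± 0.0273 in FH without overlap (exact permutation p = 0.0571, two-sided). Ribo-Zero gave 0.0369 RPKM in CCE (31 tags) and 0.444 in FH (629 tags). The 30 kb beyond the end of Airn, measured in the same way, held 0.0238 ± 0.00948 RPKM in CCE and 0.024 ± 0.00818 in FH. In the Kcnq1 introns beyond the start of Kcnq1ot1 the density was 0.00898 ± 0.00444 RPKM in CCE and 0.0378 ± 0.0107 in FH.

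Kcnq1, a voltage-gated potassium channel of heart and epithelia, held few tags, and in FH most of its exon tags came from 1 exon that Kcnq1ot1 covers. The exons (chr7:150293159-150612955, plus strand) held 0.0811, 0.108, 0.192 and 0.240 RPKM in CCE1 hydrolysed, CCE1 sheared, CCE2 hydrolysed and CCE2 sheared, from 6 tags. In FH1 hydrolysed, FH1 sheared and FH2 hydrolysed they held 1.31, 1.72 and 1.87 RPKM, from 50 tags. The groups did not overlap, and in limma without the minimum the difference was 1.18 ± 0.12 (adjusted p = 9.35e-05). Of the FH tags 58% fell in exon 12 of 17 (chr7:150447161-150447281), the only exon inside Kcnq1ot1, 35.2 kb after its start. In CCE it took 4 of 6 RiboMinus and 9 of 25 Ribo-Zero tags. This exon of 121 bases held 24.1 RPKM in pooled FH RiboMinus libraries and 2.53 in CCE. The 1-kb windows of Kcnq1ot1 around it, from 34 to 36 kb, held 19.1 and 11.0 RPKM in FH and 3.37 and 3.05 in CCE. The 16 other exons, which Kcnq1ot1 does not cover, held 0.0562 ± 0.0657 RPKM in CCE (2 tags) and 0.806 ± 0.386 in FH (21 tags), still without overlap (exact permutation p = 0.0571, two-sided). In Ribo-Zero these exons held 0.188 RPKM in CCE (16 tags) and 0.348 in FH (50 tags), a ratio of 1.85 (95% exact binomial interval 1.04 to 3.49). In FH a level of Kcnq1 taken over all exons is therefore in large part tags that could belong to either strand.

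**Figure D3:**
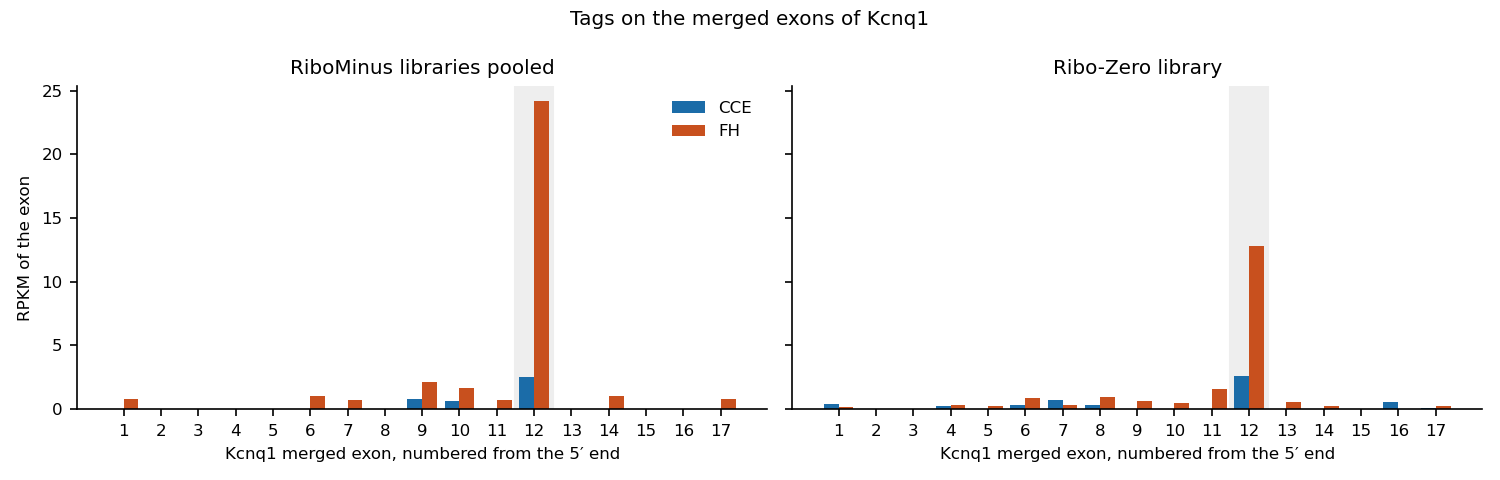
RPKM (vertical axis) of each of the 17 merged exons of Kcnq1, numbered from the 5′ end (horizontal axis), in CCE (blue) and FH (orange), for the pooled RiboMinus libraries (left) and the Ribo-Zero library (right). The grey band marks exon 12, inside Kcnq1ot1, which held 24.1 RPKM in FH RiboMinus and 12.8 in FH Ribo-Zero libraries while no other exon passed 2.10.

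Because of this exon the ratio of Kcnq1ot1 to Kcnq1 exons is read with care. It was 21.98, 7.14, 9.82 and 4.98 in CCE1 hydrolysed, CCE1 sheared, CCE2 hydrolysed and CCE2 sheared, and 2.58, 1.10 and 1.68 in FH1 hydrolysed, FH1 sheared and FH2 hydrolysed. The log2 difference was -2.48 (exact permutation p = 0.0571, two-sided), with 1 or 2 Kcnq1 tags behind each CCE value. In Ribo-Zero the ratio was 7.91 in CCE and 6.35 in FH.

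Cdkn1c, the inhibitor of cyclin-dependent kinases p57Kip2, was the most abundant of the 10 genes, and its level followed the fragmentation method more than the tissue. Its exons (chr7:150644255-150646955, minus strand) held 153 RPKM in CCE1 hydrolysed and 134 in CCE2 hydrolysed, but 437 in CCE1 sheared and 217 in CCE2 sheared. FH1 hydrolysed held 192 and FH2 hydrolysed 199, and FH1 sheared 481. All sheared preparations lay above all hydrolysed ones of either tissue. Between tissues limma gave 0.33 ± 0.47 (adjusted p = 0.572). Among hydrolysed preparations alone, where 7927 of 10407 features were called, FH was higher by 0.45 (adjusted p = 0.00171). With fragmentation as a covariate, where 7680 of 10307 features were called, the difference was 0.52 (adjusted p = 0.0507). Without FH1 sheared the sign turned, at -0.10 (adjusted p = 0.864). That fit set hydrolysed FH preparations against CCE preparations of both methods, so tissue and fragmentation were not balanced in it. In Ribo-Zero, where both libraries were hydrolysed, Cdkn1c held 123 RPKM in CCE (95% Poisson interval 120.0 to 126) and 301 in FH (298 to 305).

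For the fragmentation method, 1 of the 4 genes tested was called, against 46.0% of 10307 features (25.7% higher and 20.3% lower when hydrolysed). This was Cdkn1c, lower by hydrolysis with a log2 difference of -1.18 ± 0.22 (adjusted p = 0.00274). The call was lost in the Vienna-IMP libraries alone, at -0.95 (adjusted p = 0.0603), and in CCE alone (adjusted p = 0.0621). The G and C content of its exons, 59.7%, was higher than that of 92.6% of the features tested. The part of base composition in this was not tested. Igf2r gave 0.27 (adjusted p = 0.0916), Airn 0.42 (adjusted p = 0.065) and Phlda2 -0.27 (adjusted p = 0.346).

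Within Cdkn1c the tags were unequal along the transcript. Exons 1 and 2 of 4 held 332 and 322 RPKM in pooled CCE RiboMinus libraries and 553 and 330 in FH. The last exon, of 672 bases, held 71.4 RPKM in CCE and 71.1 in FH. In Ribo-Zero the last exon held 86.3 RPKM in CCE and 235 in FH, and exon 2 held 147 and 333. Exon 3 held 189 RPKM in CCE and 155 in FH RiboMinus libraries. These pooled values mix sheared and hydrolysed tags in shares that differ between tissues, so no difference between tissues is read from them.

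Phlda2, a pleckstrin homology domain protein that limits placental growth, was lower in FH by every setting run. It (chr7:150687450-150688446, minus strand) held 10.9, 12.8, 10.6 and 13.2 RPKM in CCE1 hydrolysed, CCE1 sheared, CCE2 hydrolysed and CCE2 sheared. In FH1 hydrolysed, FH1 sheared and FH2 hydrolysed it held 0.356, 1.40 and 1.83 RPKM, from 9 tags in all. The limma difference was -2.61 ± 0.26 (adjusted p = 4.29e-05). Phlda2 passed the minimum of 3 RPKM only through CCE. In limma without the minimum it was also called, at -2.61. Ribo-Zero gave 13.8 RPKM in CCE and 0.6 in FH, so CCE was 22.9-fold higher (95% exact binomial interval 14.9 to 37.1).

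Slc22a18, a transporter-like membrane protein, and Ascl2, a bHLH factor needed for the spongiotrophoblast, were low in CCE and lower in FH. Slc22a18 (chr7:150659626-150685239) held 2.48, 3.12, 2.25 and 2.15 RPKM in the 4 CCE preparations, in the order used above, and 1.72, 0.308 and 0.404 in those of FH. Of its 15 FH tags 11 came from FH1 hydrolysed. Ascl2 (chr7:150152727-150155169) held 1.40, 3.53, 1.47 and 1.15 RPKM in CCE and 0.167, 0.328 and 0 in FH, from 39 and 2 tags. For both genes no FH preparation reached a CCE preparation. In limma without the minimum the differences were -1.02 ± 0.27 for Slc22a18 (adjusted p = 0.0142), -1.25 ± 0.26 for Ascl2 (adjusted p = 0.00449) and -1.63 ± 0.16 for Slc22a3 (adjusted p = 8.08e-05). Ribo-Zero gave 0.791 and 0.204 RPKM for Slc22a18 and 0.389 and 0.0512 for Ascl2 in CCE and FH.

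**Figure D4:**
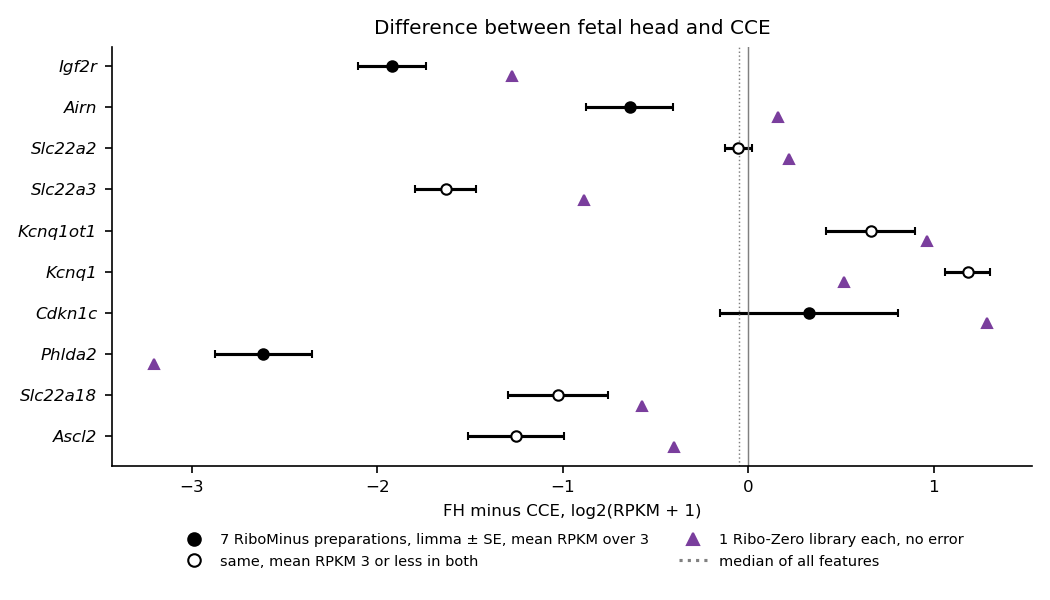
Difference between FH and CCE in log2(RPKM + 1) (horizontal axis) for the 10 genes. Circles with SE are limma values over the 7 RiboMinus preparations without a minimum, filled for the 4 genes over 3 RPKM in a tissue, triangles are the Ribo-Zero libraries (1 each, no error), and the dotted line is the median of all features in that fit (-0.05). Phlda2 and Igf2r lie at -2.61 and -1.92, Kcnq1 and Kcnq1ot1 at 1.18 and 0.66, and the triangle of Airn lies on the other side of 0 from its circle. So does that of Slc22a2, whose circle rests on 1 tag in CCE and 0 in FH, too few for a comparison. Kcnq1 is counted over all exons, with the exon inside Kcnq1ot1 included.

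Without the minimum 6 of the 10 genes were called, 5 lower in FH (Igf2r, Phlda2, Slc22a3, Slc22a18, Ascl2) and 1 higher (Kcnq1), against 42.5% of all features in that fit (20.6% higher and 22.0% lower). Kcnq1 was counted there over all exons, and 58% of its FH RiboMinus tags lay in the exon inside Kcnq1ot1. The other genes listed for the Kcnq1 cluster were mixed. Of 14 named, 8 were tested, 5 were lower and 1 higher in FH, with a median of -0.59, against 34.8% lower and 19.9% higher of all features in the fit with the minimum. Of the 5 lower, Nadsyn1 (3.64 RPKM in CCE, 2.01 in FH) was tested only through CCE. Cd81, a tetraspanin, differed by -1.60 (457 RPKM in CCE, 149 in FH, adjusted p = 0.000161 in limma). Dhcr7, the last enzyme of cholesterol synthesis, differed by -1.21 (14.8 RPKM in FH, adjusted p = 0.00125 in limma). Trpm5, a cation channel of taste cells, held 0.949 RPKM in CCE and 5.10 in FH (log2 difference 1.68), and was tested only through FH.

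Partners and relatives of the members were given from the same kind of list. Of 8 partners and family members of Kcnq1, 3 were tested, all under 3 RPKM in CCE and so tested only through FH, where they were higher. Among all features tested 19.9% were higher in FH. Kcnq5, not tested, was the only gene of this list with a lower mean in FH (2.11 RPKM in CCE, 1.27 in FH). Kcne4, a channel subunit, held 0 RPKM in every CCE preparation and 4.20 in FH (log2 difference 2.37). Of 9 relatives and targets of Cdkn1c, all tested, 8 were lower and none higher in FH, with a median of -1.06, where 34.8% of all features were lower. Of these, Ccnd1 (23.8 RPKM in CCE, 37.6 in FH) and Ccnd2 (24.5 and 38.7), both G1 cyclins, were higher in FH in the Ribo-Zero libraries. Cdkn1a, the inhibitor p21, differed by -3.96 (143 RPKM in CCE, 8.30 in FH, adjusted p = 5.36e-07 in limma) and Ccne1, a G1 cyclin, by -1.71 (16.7 RPKM in CCE, 4.42 in FH, adjusted p = 6.69e-05 in limma). Cdkn1b, the inhibitor p27, held 11.6 ± 1.04 RPKM in CCE and 12.9 ± 1.65 in FH. Of 12 genes of silencing and imprint maintenance, all tested, 5 were lower, none higher and 7 not called, with a median of -0.69. That share is near the 34.8% lower among all features and is no result about these genes. Eed, of the Polycomb complex PRC2, differed by -1.30 (45.1 RPKM in CCE, 17.4 in FH, adjusted p = 0.00259 in limma), and Uhrf1, a cofactor of Dnmt1, by -1.26 (18.4 RPKM in CCE, 7.07 in FH, adjusted p = 0.000357 in limma).

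Features whose level over the 16 libraries ran most like that of a member were found by Pearson's r of log2(RPKM + 1), as a description across libraries that share tissue, kit and preparation. For Igf2r they were Anxa3 (r = 0.983), Ckap2 (0.981) and Sfmbt2 (0.981). For Kcnq1ot1 they were Mll3 (0.962), Kidins220 (0.957) and Vcan (0.954). For Airn, Srsf5 (0.912), 2400003C14Rik (0.901) and Slc12a2 (0.90) came first, and for Cdkn1c Dbn1 (0.915), Zfp282 (0.884) and B3galt6 (0.879).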

How the data were processed

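The members and gene lists were chosen with earlier results of these data known. The authors mapped 36-base (RiboMinus) or 51-base (Ribo-Zero) tags to mm9 with Bowtie, version not given in the sources used here, kept unique tags, and deposited their start and end positions, with a constant score of 1 that was not used. Splice junctions were not mapped. The libraries did not keep the strand of the RNA, so tags were counted without regard to strand. 8 labelled samples were not analysed here. Tag midpoints were counted in merged exons of 22380 GENCODE M1 protein-coding genes and over the whole of Airn and Kcnq1ot1, both locations summed per preparation, and divided by length and all unique tags (RPKM). Differences were tested with limma 3.58.1 (R 4.3.3, trended variance, Benjamini-Hochberg) on log2(RPKM + 1), with a mean over 3 RPKM in 1 tissue. Introns used log2(RPKM + 0.1), at least 1000 bases and a mean over 0.3. Ratios and positions had exact permutation tests. Preparation numbers follow the study's sample table. Between locations, ratios of preparation 1 to 2 correlated at 0.641 for sheared CCE, -0.644 for hydrolysed CCE and -0.496 for hydrolysed FH, so hydrolysed numbers may be crossed at 1 location. Each hydrolysed preparation would then mix tags of 2 depleted RNAs. The spread between them would come out too small, and p-values with it, most of all among hydrolysed preparations alone. The protocol text of sheared samples describes hydrolysis, and the labelled method was used. The genes named are the members, in each list the called genes with the largest differences (up to 2 each way), and the 3 features most like Airn, Kcnq1ot1, Igf2r and Cdkn1c. Gata4, Pou5f1, Cdx2, Gcm1, Tpbpa, M6pr, Mas1, Slc22a5, Ccnd1, Ccnd2, Cdkn1b, Nadsyn1 and Kcnq5 were added after their values were seen. Some genes that the rule would name are not reported here. The fits were tested on simulated data.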

Additional observations from a re-analysis of the deposited data

Results flagged for a closer look

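In 35 groups of 4 to 8 samples, 5 had 1 value far from the others by Dixon's test, which flags about 1 in 20 groups by chance. Ascl2 held 3.53 RPKM in CCE1 sheared, apart from the 3 other CCE preparations. Slc22a18 held 2.48 RPKM in the FH1 hydrolysed library from Vienna-IMP and Slc22a3 held 0.715 RPKM in the FH1 hydrolysed library from Nijmegen, both the highest of 6. Slc22a2 held 0.156 RPKM in CCE1 sheared and 0.241 RPKM in its Vienna-IMP library, both from a single tag where all others had 0.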

How the results depend on the processing

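Igf2r and Phlda2 stayed called and lower in FH under all 25 alternatives each. The count of called members was 3 of 4 tested. It was 2 of 4 in Nijmegen libraries alone (4029 of 10324 features). With Airn no longer tested, it was 2 of 3 with single libraries as units (6631 of 10317 features) and in Vienna-IMP libraries alone (5391 of 10304). The same held with preparation numbers crossed (5263 of 10315) and with Airn counted without Igf2r exons or outside Igf2r (5638 of 10306 each). The count went to 6 of 10 without the minimum (7542 of 17726 features, also with either other count of Airn). It was 6 of 7 with each position counted once (6259 of 11090) and 4 of 5 over reachable length (5684 of 10500). Hydrolysed preparations only gave 5 of 5 (7927 of 10407). Without the minimum and with fragmentation as covariate it was 8 of 10, where 10190 features were called. Leaving out 1 preparation gave 2 to 3 (4721 to 5792 features). For fragmentation, 0 members were called in Vienna-IMP libraries (1272 features) and in CCE only (1537), 2 in Nijmegen (3214), and 1 to 3 without 1 preparation (2830 to 5809 features). For introns 1 member was called without the minimum (4387 genes) and with the covariate (4319), and 0 to 1 without 1 preparation (1634 to 3233). Among values not called the sign turned for Cdkn1c, at -0.10 without FH1 sheared, where FH had hydrolysed preparations only (-0.10 to 0.68 without 1 preparation). It also turned for Phlda2 by fragmentation, at 0.44 in Vienna-IMP libraries. Airn relative to Igf2r fell to a log2 difference of 1.01 with hydrolysed preparations only. The causes were not tested, except that a dropped minimum adds features. Same-numbered titles did not pair the samples (deviations correlated from -0.643 to 0.527). With that number as a replicate block in libraries 1 to 6 of each tissue, 2 members and 6243 features were called, against 2 and 6522 without it. The ratio of Kcnq1ot1 to Kcnq1 had no value at single locations because libraries had 0 Kcnq1 tags. Depth limits Slc22a3, Ascl2 and Slc22a18, with few RiboMinus tags in FH, Kcnq1, with few in CCE, and Slc22a2, with few in both. Alternatives added after seeing the data are those that combine the missing minimum with another change, and the fit of libraries 1 to 6 without the block.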

Other observations

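Along Kcnq1ot1 the G and C content of 44 windows of 1 kb between 2 and 47 kb (33.5% to 52.6%) was set against density as log2(RPKM + 1). Pearson's r was 0.795 in pooled CCE libraries and 0.375 in pooled FH libraries of the RiboMinus kit. The Ribo-Zero libraries gave 0.413 for CCE and 0.493 for FH. Along Airn, over 68 windows between 2 and 80 kb, r was 0.591 (CCE) and 0.523 (FH) with RiboMinus, and 0.377 (CCE) and 0.272 (FH) with the other kit. Windows of 1 transcript share libraries and are not independent, so no p is given. The stretch of Kcnq1ot1 from 30 to 36 kb had a mean of 49.9% G and C, against 45.6% between 2 and 30 kb and 41.5% between 36 and 47 kb. Between 47 and 67 kb, where RiboMinus tags thinned out, the mean was 33%. Whether base composition played a part was not tested.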
